A study of Mus musculus with 9 samples.

Results

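Haemoglobin genes and 2 further genes of red cell metabolism were examined in white gastrocnemius (calf) muscle of mice without Gaa and of wild-type mice. The 6 genes were chosen by name (Hba-a1, Hba-a2, Hbb-b1, Hbb-b2, Alas2 and Bpgm) from 18062 genes, and all 6 passed the expression filter that left 11032 genes for testing. The knock-out group had 5 libraries, each from mice at 5 months of age, and the wild-type group had 4, of which 2 were from mice at 5 months and 2 from mice at 6 months. Both groups were of mixed BL6/129j background. The knock-out colony, bred between brothers and sisters for more than 20 generations, carries a targeted disruption of exon 6 of Gaa, the gene of the lysosomal enzyme acid alpha-glucosidase, with LoxP sites in the introns on either side of that exon. Without the enzyme glycogen builds up in lysosomes, as in Pompe disease, and the comparison asks how muscle gene expression differs without it. The wild-type columns, wt1 to wt4, are not marked by age, so the 4 form 1 group in which the ages cannot be told apart. Individual mice are not named either, so whether each library is a separate animal is not known. The p-values set group differences only against the scatter between these libraries.

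Haemoglobin is a tetramer of alpha and beta chains that carries oxygen in red blood cells, each chain holding 1 haem group. Maturing red cells make globin messenger RNA in very large amounts, and young circulating red cells (reticulocytes) still hold it after the nucleus is lost, so a tissue that contains blood gives globin reads. Alas2 encodes the red cell form of 5-aminolevulinate synthase, the first enzyme of haem synthesis, whereas Alas1 encodes the form of other tissues. Bpgm encodes bisphosphoglycerate mutase, which makes 2,3-bisphosphoglycerate, a small molecule that lowers the oxygen affinity of haemoglobin. Muscle fibres have their own oxygen-binding globin, myoglobin.

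The globin copies are shown first, because their sequences limit what each symbol can report. In the mouse reference transcripts (GENCODE M21, GRCm38), the coding sequences of Hba-a1 and Hba-a2 are 429 bases long and differ at 1 base, C381T, counted from 1 at the A of the start codon with the base of Hba-a1 first. The windows over coding positions 357 to 405 are printed 5′ to 3′ with that base in capitals.
Hba-a1: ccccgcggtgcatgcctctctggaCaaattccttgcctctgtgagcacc
Hba-a2: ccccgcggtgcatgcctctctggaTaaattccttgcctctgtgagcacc
Of the windows of 50 bases in the Hba-a1 coding sequence, 87.1% also occur in Hba-a2. The beta chain has 3 lines in the table, listed as Hbb-b1, Hbb-b2 and Beta-s. Laboratory strains carry different haplotypes of the beta-globin cluster, and these names come from more than 1 of them. The transcript listed as Hbb-b1 is named Hbb-bt in the current RefSeq table, and that listed as Beta-s is named Hbb-bs. Their coding sequences of 444 bases also differ at 1 base, T417C, with the base of Hbb-b1 first. Coding positions 393 to 441 are shown in the same way.
Hbb-b1: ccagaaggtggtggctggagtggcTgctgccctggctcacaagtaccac
Beta-s: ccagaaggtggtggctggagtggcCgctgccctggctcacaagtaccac
Here 92.9% of the windows of 50 bases are shared. A read from most of either coding sequence therefore fits both copies. Which haplotype these mice carry, and whether it differs between the groups, was not tested.

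The promoters of 3 members, Hba-a1, Hbb-b1 and Alas2, are shown because red cell promoters are a textbook case of shared motifs. The windows are the 250 bases before the transcription start in the RefSeq table (GRCm38.p6), 5′ to 3′ on the strand of the gene, with every match to 5 motifs on either strand in capitals. CACCC is the core of the motif read by Krüppel-like factors. AGATAA is a form of the GATA factor motif, and TGATAA is a further one. The box named after CCAAT was also searched, and the TATA box was searched as TATAA.
Hba-a1, chr11:32283422-32283671, plus strand: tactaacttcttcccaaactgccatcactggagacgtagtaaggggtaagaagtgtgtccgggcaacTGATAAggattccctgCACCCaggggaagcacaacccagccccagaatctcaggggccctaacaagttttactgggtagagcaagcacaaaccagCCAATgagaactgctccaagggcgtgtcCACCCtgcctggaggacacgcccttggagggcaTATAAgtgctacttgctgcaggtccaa
Hbb-b1 (current name Hbb-bt), chr7:103813924-103814173, minus strand: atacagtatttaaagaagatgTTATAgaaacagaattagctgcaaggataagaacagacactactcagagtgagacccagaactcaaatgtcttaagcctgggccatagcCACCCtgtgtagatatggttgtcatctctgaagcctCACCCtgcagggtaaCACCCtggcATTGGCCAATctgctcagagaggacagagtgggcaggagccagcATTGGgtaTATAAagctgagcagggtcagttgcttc
Alas2, chrX:150547167-150547416, plus strand: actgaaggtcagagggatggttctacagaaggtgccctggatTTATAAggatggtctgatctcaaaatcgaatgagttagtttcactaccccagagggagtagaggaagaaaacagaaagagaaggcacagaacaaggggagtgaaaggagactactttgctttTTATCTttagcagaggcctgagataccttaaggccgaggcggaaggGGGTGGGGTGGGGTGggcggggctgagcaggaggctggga
CACCC was found in all 3 windows, with 2 matches in Hba-a1, 3 in Hbb-b1 and 3 in Alas2, and it occurs in 52% of the 32851 upstream windows of that length in the table. A GATA form was found in Hba-a1 (TGATAA, 183 bases before the start) and in Alas2 (AGATAA on the opposite strand, 86 bases before it), and 16.6% of all windows hold one or the other. Both globin windows held CCAAT (33.8% of all windows), and all 3 windows held TATAA (22.8% of all windows), which in Hba-a1 and Hbb-b1 begins 27 and 28 bases before the start. The TATAA match of Alas2 lies 207 bases before the start and overlaps its own reverse complement. The upstream windows of Hba-a1 and Hba-a2 were identical over 247 bases when shifted by 3 bases, so the copies share this part of the promoter as well. These matches describe the letters only.

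All 6 genes were lower in the knock-out muscle, by 20.3% to 41.6% of the wild-type mean. Each passed the threshold (limma on log2(RPKM + 0.1), Benjamini-Hochberg adjusted p below 0.05 over all 11032 genes), and for each the 5 knock-out values lay below all 4 wild-type values. Among all genes tested, 14.8% were called lower and 11.4% had knock-out values all below the wild type. The median log2 difference of the 6 was -0.53, against 0.12 over all genes, so relative to the median gene the 6 differences ran from -0.45 for Bpgm to -0.86 for Hbb-b1. The 6 do not make 6 separate measurements, since the globin copies share reads. Which cells held these RNAs was not measured in whole muscle, so fewer such cells and less RNA per cell cannot be told apart.

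**Figure D1:**
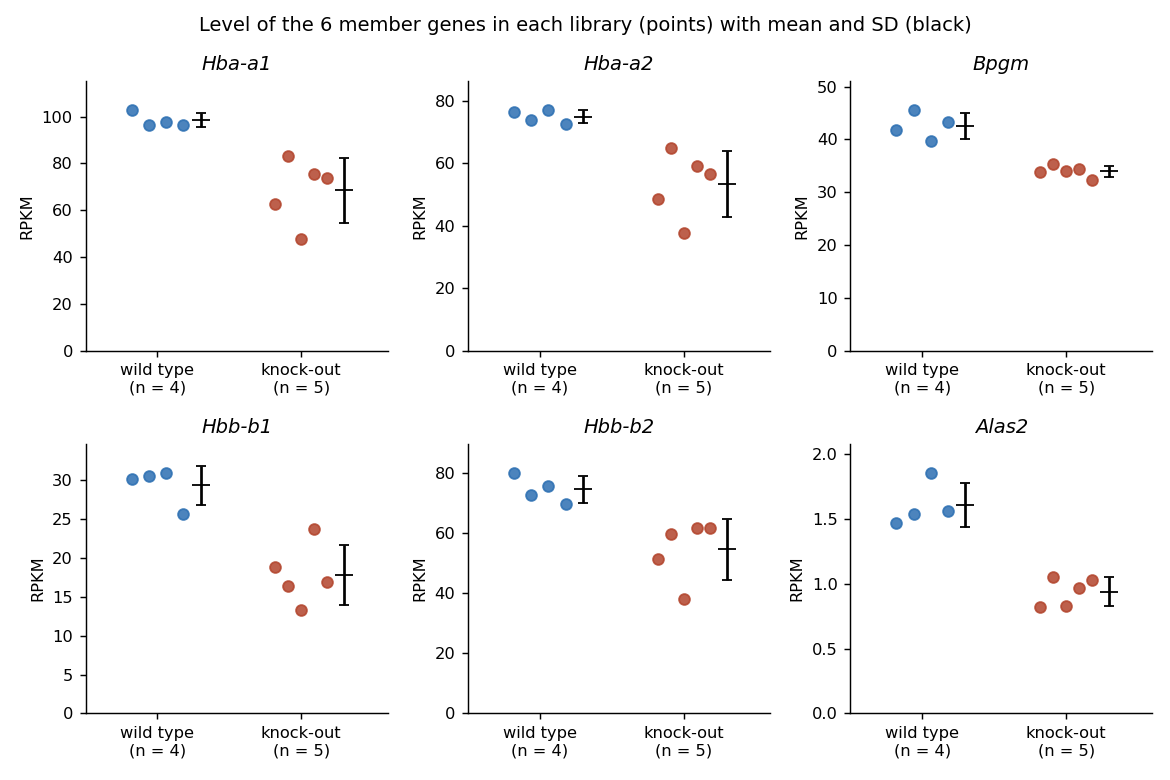
RPKM of each member gene in every library, 4 wild-type (blue) and 5 knock-out (red), with the mean and SD in black and axes from 0. In all 6 panels the knock-out points lie below the wild-type points, and the spread of the knock-out points is wide for the haemoglobins and narrow for Bpgm.

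RPKM (reads per kilobase of transcript, scaled to the reads of the library) is a level per transcript length, so it can be compared between genes. Gaa was at 3.11 to 3.64 RPKM in knock-out libraries and 46.0 to 56.0 in the wild type, as the genotype labels call for. Depth was estimated as the reads that correspond to 1 RPKM over 1 kilobase: knock-out libraries had 17.65 (ko3, the shallowest) to 37.6, wild-type libraries 36.95 to 64.3. Over all 11032 genes 51.8% were called in either direction and 37% were called higher, while 30.9% had knock-out values all above the wild type. The fast fibre genes that mark this muscle part were abundant in both genotypes, with Myh4 (the fast IIb myosin) at 11875 RPKM in knock-out libraries and 13830 in the wild type.

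Hba-a1, an alpha chain gene, was the most abundant member. It stood at 62.5, 83.1, 47.5, 75.4 and 73.7 RPKM in ko1 to ko5, and at 102.8, 96.4, 97.9 and 96.4 RPKM in wt1 to wt4. The wild-type libraries were close to each other, and ko3 was the lowest of all. The means were 68.4 ± 13.8 (SD, n = 5) and 98.4 ± 3.05 (SD, n = 4), which placed the gene at rank 451 of 18062 by mean level. The log2 difference was -0.55 (SE 0.13, limma adjusted p = 0.0045), a 1.46-fold lower level, and an exact permutation test (two-sided) gave p = 0.0159.

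Hba-a2 followed it library by library. Its levels were 48.7, 64.7, 37.7, 59.1 and 56.5 RPKM in ko1 to ko5 and 76.3, 73.8, 77.0 and 72.5 RPKM in wt1 to wt4. Again ko3 was the lowest and ko2 the highest of the knock-out, and the groups did not overlap. The log2 difference was -0.51 (SE 0.13, limma adjusted p = 0.0055, exact permutation p = 0.0159).

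The deposited values do not separate these 2 alpha genes. Each has 2 lines in the table, read here as 1 for each placement on the genome, which the sources used here do not state. The ratio of the Hba-a1 line to the Hba-a2 line ran from 1.26 to 1.35 over the 9 libraries. Within each library the ratios at both placements differed by at most 0.0012. The second placement held 40.9% to 46.4% of the alpha signal in knock-out libraries and 40.9% to 47.2% in the wild type, so the groups overlapped. With the 4 lines merged into 1 feature before the fit, alpha globin was lower by -0.53 on the log2 scale (SE 0.13, limma adjusted p = 0.0049). Summed, the alpha lines gave 85.2 to 147.8 RPKM in knock-out libraries and 168.9 to 179.1 RPKM in the wild type.

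Among the beta chains, Hbb-b1 had the largest relative difference. It stood at 18.9, 16.4, 13.4, 23.7 and 16.9 RPKM in ko1 to ko5, and at 30.2, 30.6, 31.0 and 25.6 RPKM in wt1 to wt4. The highest knock-out library, ko4, came within 2 RPKM of the lowest wild-type library, wt4, without reaching it. The means were 17.9 ± 3.83 (SD, n = 5) and 29.4 ± 2.51 (SD, n = 4), and the log2 difference was -0.74 (SE 0.13, limma adjusted p = 7.4e-04, exact permutation p = 0.0159).

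Hbb-b2 was more abundant and differed less. Its levels were 51.5, 59.7, 38.2, 61.8 and 61.8 RPKM in ko1 to ko5 and 80.1, 72.5, 75.7 and 69.8 RPKM in wt1 to wt4. As for the alpha chains, ko3 stood lowest, and the groups were apart. The log2 difference was -0.47 (SE 0.13, limma adjusted p = 0.0089), a 1.38-fold lower level, and the exact permutation p was 0.0079, the smallest that the 126 arrangements of 5 and 4 libraries can give.

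The most abundant beta line, Beta-s, carries a symbol outside the 6 names. It stood at 56.2 to 88.9 RPKM in knock-out libraries and 86.2 to 102.9 RPKM in the wild type, so ko4 (88.9) lay above wt4 (86.2) and the groups overlapped. Its log2 difference was -0.42 (SE 0.11, limma adjusted p = 0.0098, exact permutation p = 0.0238). It held 47.4% to 52.2% of the beta signal in knock-out libraries and 47.4% to 48.2% in the wild type. A haemoglobin sum that leaves it out therefore misses about as much beta signal as it counts. With the 3 beta lines merged into 1 feature, the log2 difference was -0.48 (SE 0.12, limma adjusted p = 0.0049).

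Hbb-b1 took a smaller share of the beta signal in the knock-out, 12.4% ± 1.52 (SD, n = 5), than in the wild type, 14.7% ± 0.678 (SD, n = 4), but ko1 (14.1065%) lay just above wt4 (14.1037%). Beta to alpha ratios were 1.20 ± 0.104 (SD, n = 5) in knock-out libraries and 1.149 ± 0.0508 (SD, n = 4) in the wild type, with ranges of 1.03 to 1.297 and 1.08 to 1.19 that overlapped. No test was made of these shares and ratios, which rest on how the authors' software divided shared reads. A beta-globin haplotype that differs between the groups could also shift the beta lines, and this was not tested. The summed adult globin lines made up 0.0547% to 0.0858% of all RPKM in knock-out libraries and 0.111% to 0.1199% in the wild type. The other adult-cluster symbols in the table, Hbq1a and Hbq1b, were at most at 0.0841 RPKM in any library.

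**Figure D2:**
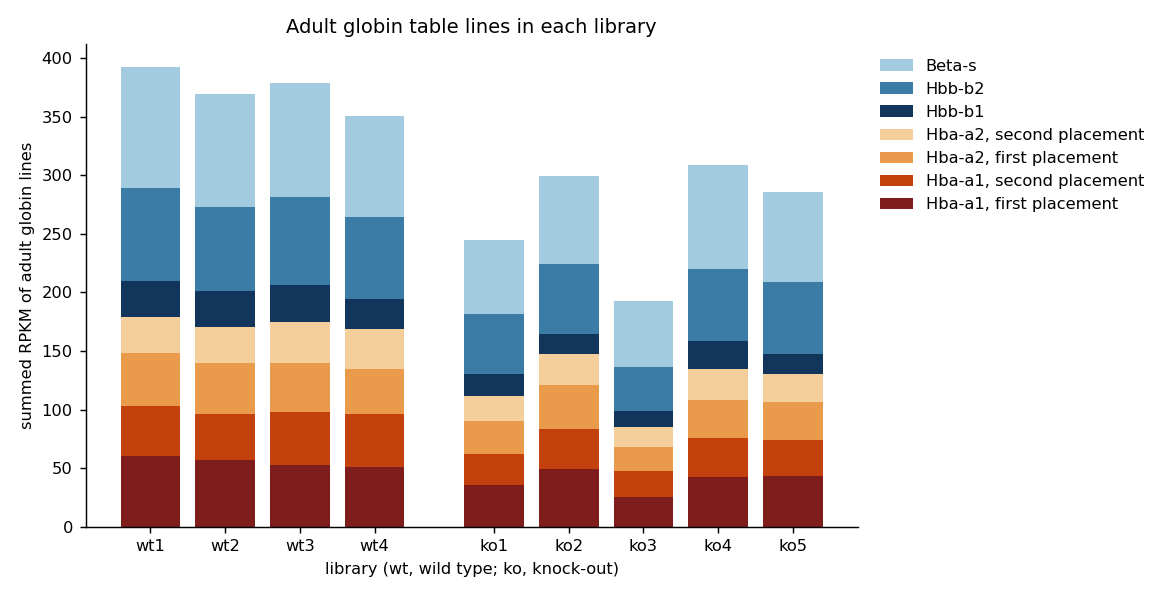
Stacked RPKM of the 7 adult globin lines of the table in each library, alpha lines in red to yellow and beta lines in blue, from 0. Totals with Beta-s run from 350.6 to 392.3 in the wild type and from 193.0 to 308.9 in the knock-out.

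Alas2 was a low transcript, and its mean was 41.6% below that of the wild type. It stood at 0.822, 1.05, 0.826, 0.964 and 1.03 RPKM in ko1 to ko5, and at 1.47, 1.54, 1.86 and 1.56 RPKM in wt1 to wt4. The gap between the groups was wider than the range within the knock-out. The means were 0.939 ± 0.110 (SD, n = 5) and 1.61 ± 0.171 (SD, n = 4), and the log2 difference was -0.72 (SE 0.11, limma adjusted p = 2.3e-04, exact permutation p = 0.0079). These levels correspond to an estimated 29.7 to 76.0 reads per library in knock-out libraries and 108.7 to 237.5 in the wild type, so counting error is larger here than for the globins.

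Alas2 has 2 transcript lines, and the split between them was unstable. The minor line held 62.3% of the gene's signal in ko1, 14.9% in ko2 and at most 1.17% in the other 3 knock-out libraries, against 7.55% to 34.0% in the wild type. With the major line alone in place of the sum, the difference was -0.62 (SE 0.26) and no longer passed the threshold (limma adjusted p = 0.072). The haemoglobin total with Beta-s was 233.7 to 320.3 times the Alas2 level in knock-out libraries and 203.5 to 266.5 times in the wild type, ranges that overlap.

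Bpgm had the smallest difference of the 6 and, in the knock-out, the tightest values. Its levels were 33.8, 35.3, 34.0, 34.3 and 32.3 RPKM in ko1 to ko5 and 41.7, 45.6, 39.8 and 43.2 RPKM in wt1 to wt4. The knock-out libraries lay within 3 RPKM of each other, and none reached the wild type. The coefficient of variation in the knock-out was 3.16%, against 20.2% for Hba-a1, 21.5% for Hbb-b1 and 11.7% for Alas2. In the wild type it was 5.77%, above the 3.10% of Hba-a1 and the 2.84% of Hba-a2. The log2 difference was -0.32 (SE 0.05, limma adjusted p = 2.9e-04, exact permutation p = 0.0079), a 1.25-fold lower level. Its mean in both genotypes was above that of Hbb-b1.

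Around the genotype means Hba-a1, Hba-a2 and Hbb-b2 varied together, Hbb-b1 varied with them less closely and Bpgm did not. Most of the haemoglobin variation lay in the knock-out. There the Hba-a1 deviations ran from -0.50 to 0.31 on the log2 scale, against -0.029 to 0.064 in the wild type. As deviations from the genotype mean over 9 libraries, Hba-a1 and Hba-a2, which share reads, had a Pearson r of 0.99. Hba-a1 and Hbb-b2, an alpha and a beta chain gene, had one of 0.95. Hbb-b1 followed Hba-a1 less closely (0.55), Alas2 had an r of 0.65 with Hba-a1, and Bpgm one of 0.05. These values rest mainly on the knock-out libraries. In the wild type the largest Alas2 deviation was in wt3 (0.20), where Hba-a1 was at -0.007. The library ko3 was lower than the knock-out mean by -0.50 for Hba-a1, -0.47 for Hba-a2, -0.39 for Hbb-b1 and -0.49 for Hbb-b2 on the log2 scale, while Alas2 was at -0.16 and Bpgm at 0.003. It is also the shallowest library, and the part of depth in this was not tested. Without ko3 the log2 differences were -0.42 for Hba-a1, -0.39 for Hba-a2, -0.64 for Hbb-b1 and -0.35 for Hbb-b2, and all 4 still passed the threshold.

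**Figure D3:**
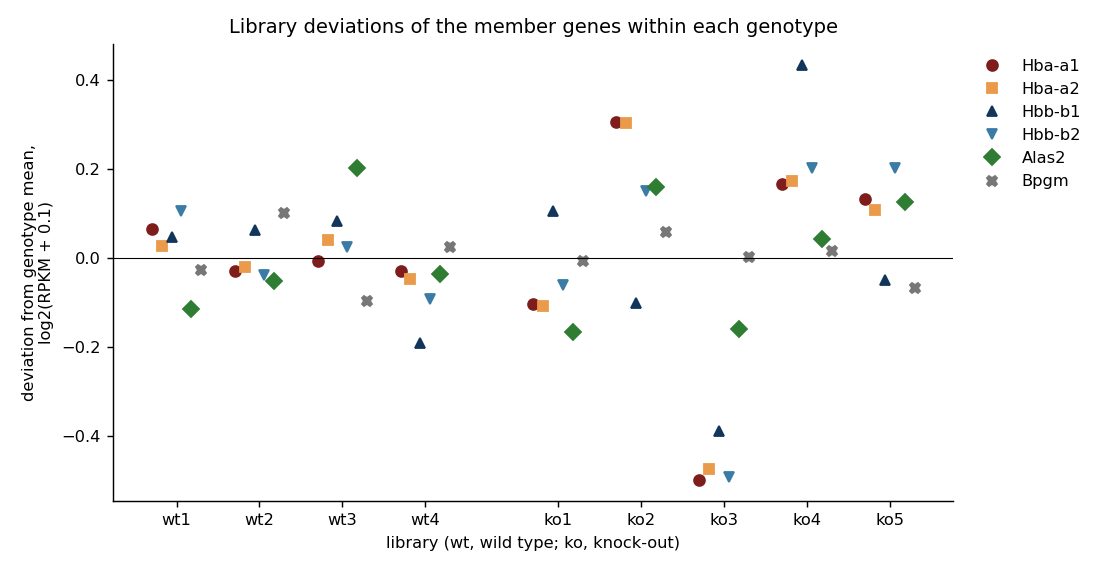
Deviation of each member gene from the mean of its genotype on the log2(RPKM + 0.1) scale, by library. The haemoglobin points of ko3 lie 0.39 to 0.50 below their mean, and the Bpgm points stay within 0.11 of it in every library.

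Other genes with deviations most like those of the summed haemoglobins, out of 11025, were Smap2 (r = 0.989), Wwox (0.973), Neu1 (0.970), Pip4k2c (0.968) and Dbnl (0.962), over 9 libraries. Neu1 encodes a lysosomal sialidase. Of these, Dbnl passed the threshold between genotypes, and it was higher in the knock-out, at 5.15 against 3.29 RPKM. For Alas2 the closest were Hmgn1 (0.981), Lrrc42 (0.976), Gatsl3 (0.965), Ppm1f (0.953) and Gga3 (0.944). Hmgn1 and Gga3 were higher in the knock-out and the other 3 did not pass as fitted here, though some of the genes not called passed under other settings. None of the 10 is a gene of the red cell lists used here, and 0.336% of all genes had an r above 0.9 with the summed haemoglobins.

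The remaining steps of haem synthesis, which most cells carry out, did not follow Alas2. Of 13 genes tested, 7 rose, 2 fell and 4 did not pass, with a median of 0.22 against 0.12 for all genes (of which 37% were called higher). Centring each library on its median gave 4 and 4, and removing a trend with transcript length gave 3 and 3. Urod, an enzyme of the middle of the pathway, rose from 22.0 to 29.4 RPKM (limma adjusted p = 1.9e-04). The 2 that fell were Alas1, the housekeeping first enzyme, from 32.6 ± 2.46 to 27.0 ± 2.80 RPKM (log2 difference -0.27, SE 0.08, limma adjusted p = 0.014), and Cpox, from 6.84 to 5.95 RPKM (limma adjusted p = 0.0487), whose call ended without any 1 of ko1, ko2, ko4, ko5, wt1, wt3 or wt4. Alas1 was at 23.7 to 30.2 RPKM in knock-out libraries and 29.7 to 34.7 in the wild type, which overlap in ko4. Fech, which inserts iron into the ring, was at 42.3 RPKM in knock-out libraries and 39.5 in the wild type (limma adjusted p = 0.11).

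Genes that break down haem or clear free haemoglobin were higher or not past the threshold. Of 9 tested, 6 rose and none fell by limma, with a median of 0.43, beside 37% higher and 14.8% lower over all genes. The counts were 4 and 1 with centring and 3 and 1 with the length trend removed. Abcg2, an exporter whose substrates include porphyrins, rose from 6.51 ± 1.09 (SD, n = 4) to 17.96 ± 1.42 RPKM (SD, n = 5, log2 difference 1.46, SE 0.10, limma adjusted p = 6.0e-07). Slc48a1, which moves haem out of lysosomes, rose from 13.4 to 19.1 RPKM (limma adjusted p = 1.3e-04). Hmox1, the inducible haem oxygenase, was at 3.11 RPKM in knock-out libraries and 3.14 in the wild type (limma adjusted p = 0.88), and the haemoglobin receptor Cd163 at 1.78 and 1.28 (limma adjusted p = 0.16).

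Iron handling genes went both ways, with 4 of 16 higher, 3 lower and a median of 0.04 (4 and 5 with the length trend removed). Over all genes 37% were called higher and 14.8% lower. Fth1, the ferritin heavy chain that stores iron, rose from 796 ± 35.6 (SD, n = 4) to 1371 ± 67.3 RPKM (SD, n = 5, log2 difference 0.78, SE 0.06, limma adjusted p = 8.5e-07). Hfe, a regulator of iron uptake, rose from 9.07 to 16.9 RPKM (limma adjusted p = 1.3e-07). The iron exporter ferroportin, Slc40a1, fell from 10.2 ± 0.209 to 7.23 ± 0.513 RPKM (log2 difference -0.49, SE 0.06, limma adjusted p = 4.5e-05), and Ireb2, an iron-responsive RNA-binding protein, fell from 5.76 to 4.47 RPKM (limma adjusted p = 0.0041). The transferrin receptor Tfrc was at 26.1 and 25.4 RPKM (limma adjusted p = 0.67).

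Some defining genes of red cells were too low to test. Slc4a1 (band 3, the anion exchanger of the red cell membrane) was at 0 to 0.0124 RPKM in knock-out libraries and 0.0102 to 0.0354 in the wild type. Of the 24 listed membrane and cytoskeleton symbols 19 were in the table and 9 were tested. Of the 9, 1 was higher and 4 were lower, with a median of -0.05 (37% higher and 14.8% lower over all genes). Epb4.1, the protein 4.1 of the membrane skeleton, fell from 19.7 to 14.0 RPKM (limma adjusted p = 2.6e-05), the water channel Aqp1 from 80.6 to 44.6 (limma adjusted p = 8.3e-04), and Cd59a, a complement inhibitor, rose from 5.65 to 9.91 (limma adjusted p = 3.2e-06). These genes are expressed in other cells too, and Aqp1 is also on the endothelial list. Counts of lower genes in this list dropped to 2 without wt3 or without wt4.

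The list of erythroid regulators and late red cell genes had 5 of 12 tested genes higher and 3 lower, with a median of 0.19, beside 37% higher and 14.8% lower over all genes. Car2, a carbonic anhydrase, fell from 3.86 ± 0.303 (SD, n = 4) to 1.52 ± 0.0822 RPKM (SD, n = 5, log2 difference -1.29, SE 0.08, limma adjusted p = 1.4e-07), and Bnip3l, which clears mitochondria from reticulocytes, fell from 12.7 to 11.5 RPKM (limma adjusted p = 0.024). Slc25a37, the mitochondrial iron importer mitoferrin, rose from 4.596 to 10.03 RPKM (limma adjusted p = 8.4e-07), and Prdx2, an abundant peroxidase of red cells and other cells, rose from 52.3 to 80.6 (limma adjusted p = 5.1e-06). The call of Bnip3l ended without ko4, wt1, wt2 or wt3. The erythroid transcription factors Gata1 and Klf1 were at most at 0.0804 RPKM in any library.

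Among relatives of Bpgm, those that passed the threshold were higher, against the direction of Bpgm, though this depended on the scaling. Of 8 genes of phosphoglycerate and bisphosphoglycerate metabolism, 4 rose and 1, Bpgm itself, fell, with a median of 0.14 (2 rose and 2 fell with quantile normalization or the length trend removed). The shares over all genes were 37% higher and 14.8% lower. Minpp1, a phosphatase that can act on 2,3-bisphosphoglycerate, rose from 4.55 to 5.87 RPKM (limma adjusted p = 2.5e-04), and the enolase Eno1 rose from 6.35 to 9.34 (limma adjusted p = 0.0023). Pgam2, the muscle phosphoglycerate mutase, was at 1047 RPKM in knock-out libraries and 1101 in the wild type (limma adjusted p = 0.55). Of the other oxygen-binding globins, myoglobin (Mb) was at 926 ± 61.8 (SD, n = 5) and 869 ± 136 RPKM (SD, n = 4, limma adjusted p = 0.41), and cytoglobin (Cygb) rose from 3.86 to 6.13 RPKM (limma adjusted p = 9.3e-04).

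Markers of endothelial cells, which line the vessels, were lower beside the haemoglobins. Of 18 endothelial markers 12 fell and none rose by limma, with a median of -0.61 (14.8% lower and 37% higher over all genes). Sox18 fell from 2.98 to 1.33 RPKM (limma adjusted p = 3.4e-04) and the receptor Flt1 from 4.18 to 2.18 (limma adjusted p = 5.3e-04), both on this list of endothelial markers. Their summed level was 82.1, 146.2, 86.5, 88.2 and 92.2 RPKM in ko1 to ko5 and 129.4, 156.4, 190.5 and 172.4 in wt1 to wt4. Aqp1, which is also on the red cell membrane list, is part of this sum. It gave 36.5 to 68.2 RPKM in knock-out libraries and 67.7 to 90.7 in the wild type. Without Aqp1 the sums in ko1 to ko5 were 44.2, 78.0, 47.4, 51.7 and 50.7 RPKM. In wt1 to wt4 they were 61.7, 73.3, 99.8 and 91.6, so ko2 lay above wt1 and wt2. The library ko2, with an endothelial sum above that of wt1, had the highest haemoglobin sum of the knock-out (223.8 RPKM for the 4 member genes), still below the wild-type range of 264.4 to 289.5. With Beta-s counted, the highest knock-out total was that of ko4 (308.9 RPKM, against 299.7 in ko2), whose endothelial sum was 88.2 RPKM. The part of vessel content in the haemoglobin difference was not tested.

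Sums of platelet markers over 11 genes overlapped between the genotypes, at 4.55 to 6.41 RPKM in knock-out libraries and 4.35 to 5.97 in the wild type. Of 2 platelet genes tested, Gp1ba fell from 1.39 to 0.939 RPKM (limma adjusted p = 0.0080), with knock-out values all below the wild type (11.4% of all genes). Pf4 was at 3.55 RPKM in knock-out libraries and 3.19 in the wild type (limma adjusted p = 0.46). It gave most of the platelet sum in every library, so the overlap of the sums rests largely on this gene. Neutrophil markers summed to 0.986 to 1.604 RPKM in knock-out libraries and 0.943 to 2.65 in the wild type, with none of 12 reaching the filter. Macrophage markers, by comparison, summed to 52.6 to 85.5 RPKM in knock-out libraries and 22.4 to 28.6 in the wild type. Among 13 macrophage markers tested 11 rose, beside 37% called higher over all genes. Examples were Cd68 from 0.865 to 6.82 (limma adjusted p = 1.8e-07) and Mpeg1 from 0.382 to 1.92 (limma adjusted p = 1.0e-06). The part of macrophages in the haemoglobin levels was not tested either. Of 11 lymphocyte markers in the table, Cd3e passed the filter, and it rose from 0.409 to 1.31 RPKM (limma adjusted p = 0.0084), with wt1 and wt2 at 0.0373 and 0.0551 and wt3 and wt4 at 0.711 and 0.832. Of 12 muscle fibre markers 5 rose and none fell by limma, with a median of 0.27 (37% of all genes were called higher), and Myh2 (the IIa myosin) rose from 158 to 364 RPKM and the slow troponin Tnnt1 from 14.2 to 57.3.

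**Figure D4:**
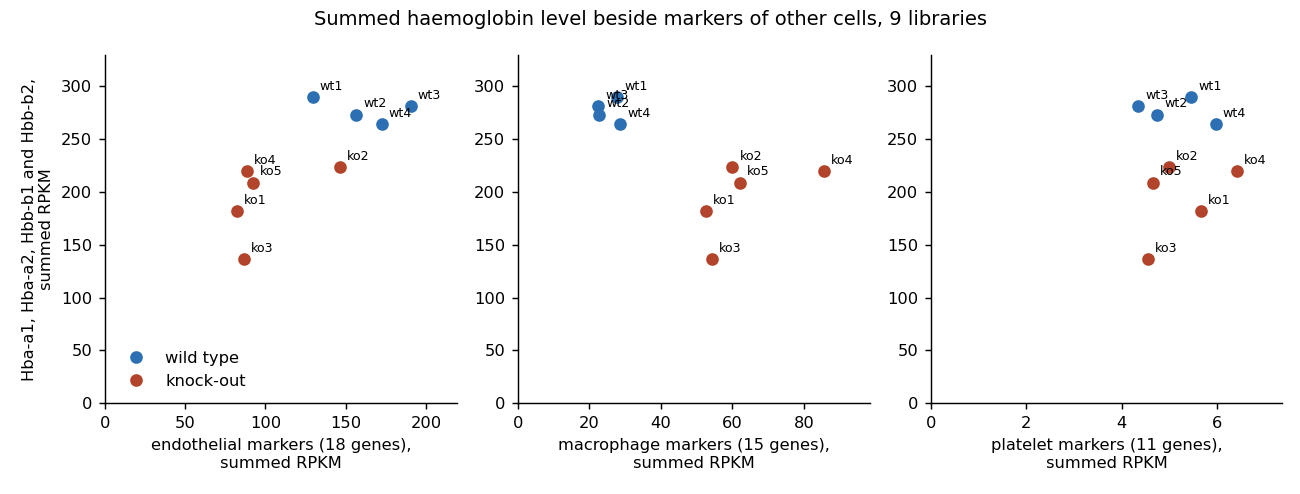
Summed RPKM of Hba-a1, Hba-a2, Hbb-b1 and Hbb-b2 against the summed RPKM of endothelial, macrophage and platelet markers in each library, wild type in blue and knock-out in red, both axes from 0. The endothelial sum includes Aqp1, which is also on the red cell membrane list. The genotypes part on the haemoglobin axis in each panel, overlap on the platelet and endothelial axes and do not overlap on the macrophage axis.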

How the data were processed

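Total RNA of 9 muscle samples was extracted with Trizol and made into libraries with the Illumina TruSeq kit, per the labels' protocols. The authors deposited 1 table of RPKM values, with 23665 lines (RefSeq transcripts, 314 with a suffix that sets them apart as a repeated line) and 1 column per library. Build mm9, TopHat 1.3.2, Bowtie 0.12.7.0 and Partek 6.6 are named per the submitters' processing notes, without roles. How reads that fit several copies were divided is not given in the sources used here. Lines were summed per symbol. Of 37 lines whose symbol had become a date, 36 were renamed by accession. The test was limma 3.58.1 under R 4.3.3 (eBayes with trend, two-sided), applied to log2(RPKM + 0.1) of genes with a mean of at least 0.5 RPKM and tried on simulated data. This scale understates changes of low genes. Exact permutation tests used all 126 arrangements of the labels. Python 3.11.15 and pandas 2.3.3 prepared the tables. Depth was estimated from the step that 1 read makes in low values. Of values of up to 5 reads, 70.8% to 74.3% were whole to within 0.1 (20% by chance). Members and lists were chosen with earlier results of these data known. Named genes were the 6 members, per list up to 2 past the threshold with the smallest p in each direction, and the 5 genes most correlated with the summed haemoglobins and with Alas2. Fech, Hmox1, Cd163, Tfrc, Mb, Pgam2, Pf4, Myh4 and the red cell genes too low to test were added after their values were seen. No batch is named in the labels, and one that follows genotype cannot be told apart from it. The suffixed lines of Hba-a1 and Hba-a2 were taken as a second placement on the genome, which is an inference. Alternatives covered pseudocount, filter, scaling, trend, transcript choice, merged copies and each library left out. Transcript lengths came from GENCODE M21. Some genes of the lists are counted but not reported by name here.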

Additional observations from a re-analysis of the deposited data

Results flagged for a closer look

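A gap test on single samples was applied to 46 groups of member levels, shares and ratios, and chance flags about 1 group in 20. It marked 2 values. Hbb-b1 was at 25.6 RPKM in wt4, below the 30.2 to 31.0 RPKM of the other wild-type libraries. The minor Alas2 transcript line held 62.3% of the gene's level in ko1, against 0.393% to 14.9% in the other knock-out libraries.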

How the results depend on the processing

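The 6 member genes stayed lower and past the threshold under every alternative run, other than Alas2 with only its highest transcript line (-0.62, limma adjusted p = 0.072). Log2 differences ran from -0.90 to -0.42 for Hba-a1, -0.89 to -0.39 for Hba-a2, -1.09 to -0.64 for Hbb-b1 (-0.48 for the merged beta feature), -0.66 to -0.35 for Hbb-b2, -0.92 to -0.43 for Alas2 and -0.51 to -0.29 for Bpgm. Hbb-b2 had no transcript length, so the removal of the length trend gave it no value and 5 members were counted there. Scaling moved the background: lower calls over all genes numbered 2758 with centring, 3056 with quantile normalization and 2872 with the length trend removed, and higher calls 2644 with quantile normalization and 2431 with the length trend removed. With centring, haem synthesis had 4 lower and 4 higher, haem breakdown 1 lower, muscle fibre markers 1 lower and phosphoglycerate metabolism 2 higher. With quantile normalization, haem synthesis had 4 lower and 4 higher, haem breakdown 1 lower, and phosphoglycerate metabolism 2 lower and 2 higher. With the length trend removed, haem breakdown had 1 lower and 3 higher, iron handling 5 lower, phosphoglycerate metabolism 2 lower and 2 higher, muscle fibre markers 2 lower and haem synthesis 3 higher. With no filter on low values, haem synthesis had 1 lower, and higher calls were 2 for the red cell membrane, 1 for platelet, 1 for neutrophil and 2 for lymphocyte markers. A filter at a mean of 1 RPKM left 0 lymphocyte markers called. Haem synthesis had 1 lower with no intensity trend and 1 with the highest transcript line only, which also gave 1 muscle fibre marker lower. The causes were not tested. Leaving out 1 library at a time, lower calls ran from 1 to 3 for haem synthesis, 2 to 4 for the red cell membrane, 1 to 3 for erythroid genes, 0 to 1 for haem breakdown and 0 to 1 for muscle fibre markers. Higher calls ran from 1 to 3 for the red cell membrane and from 2 to 4 for phosphoglycerate metabolism. Directions turned for 4 genes that did not pass the threshold: Smap2 (-0.11 with centring, -0.11 with quantile normalization, -0.13 with the length trend removed, -0.0168 without ko2, -0.0114 without ko4 and -0.00678 without ko5, and up to 0.0915 without other libraries), Neu1 (-0.0746, -0.0910 and -0.117 under the same 3 scalings), Lrrc42 (-0.0517 with the length trend removed) and Ppm1f (0.00023 without ko1, 0.0158 without ko3 and 0.0220 without wt3, and down to -0.0762 without other libraries). Calls were gained by Wwox under all 3 scalings (adjusted p from 0.0086 to 0.022), Gatsl3 with the length trend removed (0.047), Pip4k2c without ko3 (0.0052), and Lrrc42 with a filter at 1 RPKM, with no intensity trend and without ko1, ko3 or wt3 (0.037 to 0.048). No paired analysis was possible because the wild-type columns cannot be tied to the replicate numbers of the labels. Low depth limits Alas2 most, and ko3 is the shallowest library.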
